A study of Mus musculus with 10 samples.

Results

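The genes of the proteasome were examined in the livers of mice that overexpressed the histone demethylase Phf2. Members were all genes whose array annotation gives a single symbol beginning with Psma, Psmb, Psmc, Psmd, Psme, Psmf or Psmg, with the interferon-inducible subunits Psmb8, Psmb9 and Psmb10 left out. This gave 47 of the 19938 genes tested, and the rule uses no difference between the groups. Where the array holds several features of a gene, the brightest was used. They comprised 33 subunits of the 20S and 19S particles, 7 assembly chaperones, 5 activators or inhibitors and 2 genes caught by the letters of their symbol, Psmc3ip and Psme3ip1. Of the 47, 44 had a mean level above the median of all genes (5.43 on the log2 scale), and Psma8, Psmb11 and Psmc3ip lay below it.

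Phf2 mice (n = 5) received an adenovirus encoding Phf2 by tail vein injection, and GFP mice (n = 5) one encoding green fluorescent protein. All 10 were male C57BL/6J mice, 8 weeks old at injection, and were studied fed, 3 weeks later. Each liver was read on 1 Affymetrix Gene ST array, and the arrays of a group are labelled as biological replicates. No source used here names the promoter of the adenoviral transgenes, and both groups carried a virus, so an effect common to both viruses is not seen in the comparison. Values are log2 RMA signals, and a log2 fold change is the Phf2 mean minus the GFP mean. Each gene was tested with limma, a linear model that borrows the spread of all genes, and p-values were adjusted over all 19938 genes with a threshold of 0.05. The number of arrays limits the precision.

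The proteasome degrades proteins that carry ubiquitin. Its 20S core is a barrel of stacked alpha and beta rings with the proteolytic sites inside, and the 19S particle at either end binds the ubiquitin chain, removes it and feeds the unfolded protein into the core. Dedicated chaperones build both particles and leave before the finished enzyme works. In liver and other tissues, proteasome genes are known to be induced together when proteasome activity falls short, mainly through the transcription factor Nfe2l1 (Nrf1), with Nfe2l2 (Nrf2) acting under oxidative stress.

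The feature of Phf2 itself had a log2 fold change of -0.05 (adjusted p = 0.751), but no source used here says if the viral transcript is read by it, so this value is no check of the labels. The paper states that mice without overexpression of GFP or Phf2 after virus treatment were taken out of its cohorts. All 10 arrays read the 7 hepatocyte markers high, at a mean of 11.7 ± 0.17 in Phf2 mice and 11.9 ± 0.04 in GFP mice (SD, n = 5 each). Of these markers 3 were lower in Phf2 mice, whereas 7 of 11 T and NK cell markers, 2 of 7 macrophage markers and 3 of 4 proliferation markers were higher, and 0 of 3 B cell and 0 of 9 pancreatic acinar markers passed the test. The share of all 19938 genes that passed was 9.67%. The T and NK cell mean was 5.78 to 6.54 in Phf2 mice and 5.04 to 5.40 in GFP mice. The proliferation mean was 6.45, 6.52 and 6.50 in Phf2 replicates 2, 3 and 4, 5.47 and 5.42 in Phf2 replicates 1 and 5, and 4.98 to 5.32 in GFP mice. The same 3 Phf2 livers had the lower hepatocyte means (11.7, 11.5 and 11.5, against 11.8 in both others), the higher T and NK cell means (6.03, 6.30 and 6.54, against 5.92 and 5.78) and the higher macrophage means (8.06, 8.36 and 8.32, against 7.90 and 7.92) of their group. The pancreatic mean ranged between 5.86 and 10.6 in Phf2 mice and between 6.11 and 12.2 in GFP mice. Its highest value was in GFP replicate 1. This pancreatic mean was 10.6, 9.99 and 8.70 in Phf2 replicates 2, 3 and 4, and 5.86 and 6.09 in replicates 1 and 5. In bulk liver RNA, fewer cells of a type and less RNA per cell cannot be told apart, and the part of cell composition in the results that follow was not tested.

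Among the 47 genes, 2 were higher and 1 was lower in Phf2 mice than in GFP mice, and all 3 were assembly chaperones of the 19S base. The chaperones Psmd5 and Psmd10 rose by 0.47 and 0.38 on the log2 scale, and the chaperone Psmd9 fell by 0.40. No 20S or 19S subunit passed the test (0 of 33 with limma). The share of members called was 6.38%, below the 9.67% of all genes called in this comparison (5.43% higher and 4.24% lower). All Phf2 livers lay above all GFP livers for 5 members and below them for 1, against 4.71% and 4.36% of all genes. No member differed by more than 1.5-fold, and 3.79% of all genes did. With 47 members such shares amount to few genes, and their difference from all genes was not tested. Small differences lay mostly on 1 side, since 37 of 47 members had a log2 fold change above 0, with a median of 0.07, against 9024 of 19938 genes and a median of -0.01 over all genes. Without GFP replicate 4 the median of the members was 0.05 (0.0476). The plot of log2 fold changes by role shows this pattern.

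**Figure D1:**
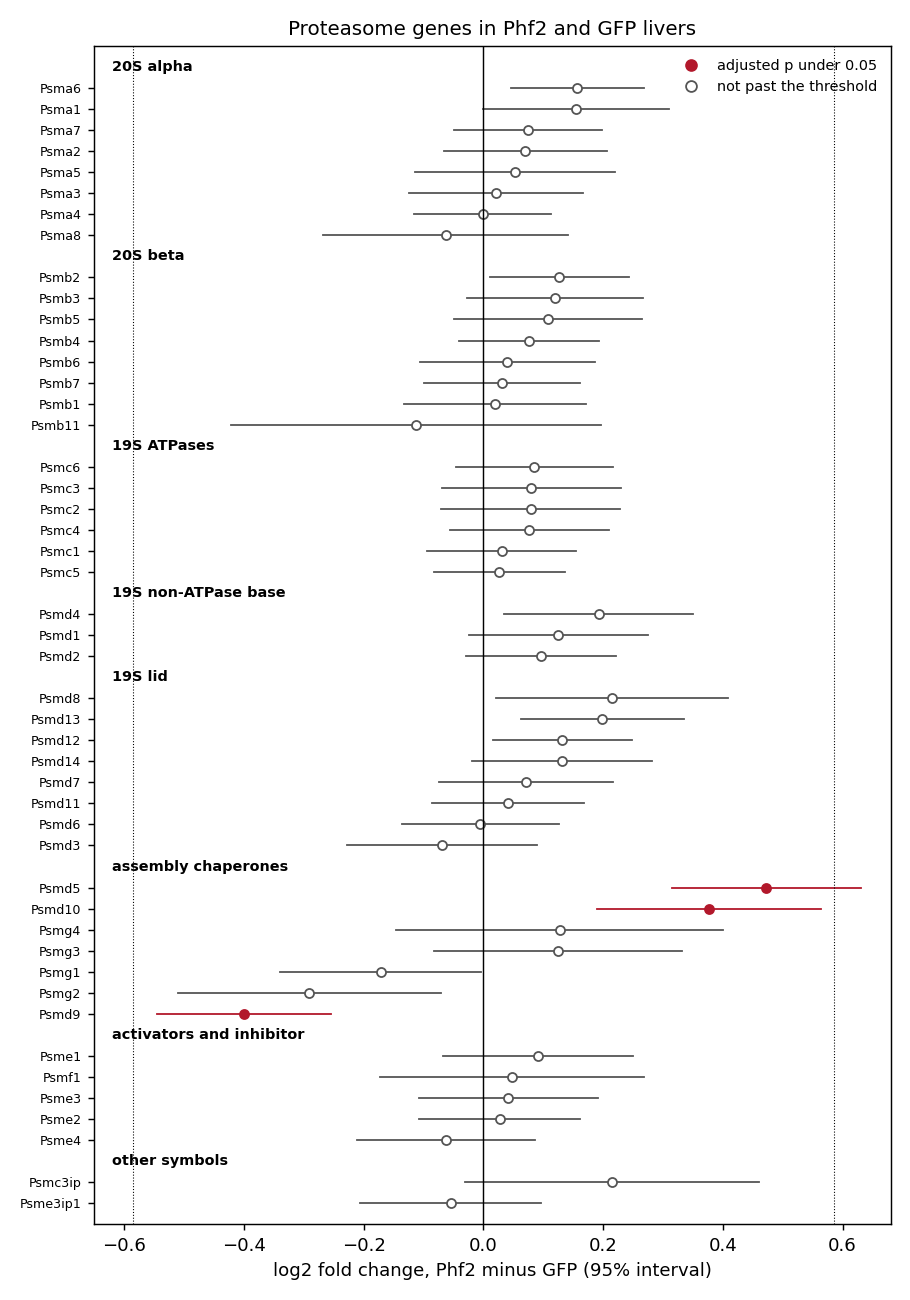
Log2 fold change, Phf2 minus GFP, of the 47 proteasome genes in rows grouped by role, with points for the estimate and horizontal lines for the 95% interval from limma (n = 5 arrays per group). Dotted lines mark 1.5-fold. Filled red points are the 3 genes past an adjusted p of 0.05, Psmd5 and Psmd10 to the right and Psmd9 to the left, and the 33 intervals of 20S and 19S subunits all lie between the dotted lines.

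The base of the 19S particle holds a ring of 6 ATPases. In yeast and mammals Psmd5 (S5b), Psmd9 (p27) and Psmd10 (gankyrin) each hold a different ATPase while the ring is built. Psmd5 (feature 10481920) read 7.85, 7.95, 8.10, 7.92 and 8.06 in Phf2 mice and 7.39, 7.52, 7.63, 7.39 and 7.59 in GFP mice. The lowest Phf2 liver lay above the highest GFP liver. The means were 7.98 ± 0.10 in Phf2 mice and 7.51 ± 0.11 in GFP mice (SD, n = 5 each), a log2 fold change of 0.47 (standard error 0.07, 95% interval 0.31 to 0.63), or 1.39-fold, with an adjusted p of 0.00147 from limma. A two-sided exact permutation test gave p = 0.00794, the smallest that 5 against 5 arrays allow.

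Psmd10, also known as a binding partner of the retinoblastoma protein and of Mdm2 and as a gene raised in human liver cancer, behaved less evenly. Its feature (10607004) read 9.15, 9.33, 9.39, 9.46 and 9.02 in Phf2 mice and 8.87, 9.03, 8.91, 8.83 and 8.82 in GFP mice. Phf2 replicates 2, 3 and 4 gave the 3 highest values, and Phf2 replicate 5 overlapped GFP replicate 2. Within the Phf2 group, these 3 livers also had the higher proliferation, T and NK cell, macrophage and pancreatic means and the lower hepatocyte means. The relation of Psmd10 to these markers was not tested. The log2 fold change was 0.38 (standard error 0.09, 95% interval 0.19 to 0.56), with an adjusted p of 0.0156 from limma and p = 0.0159 in the two-sided exact permutation test. With GFP replicates 1 and 3 left out together, a setting chosen after the data were seen, it was 0.37 with an adjusted p of 0.0725. In the RefSeq annotation Psmd10 overlaps the autophagy gene Atg4a, whose own feature had a log2 fold change of -0.05 (adjusted p = 0.780).

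Psmd9 went the other way. Its feature (10525506) read 7.85, 7.69, 7.75, 7.70 and 7.84 in Phf2 mice and 8.35, 8.08, 8.12, 8.14 and 8.13 in GFP mice. All Phf2 livers lay below all GFP livers, and GFP replicate 1 stood above the other GFP livers. The means were 7.77 ± 0.08 in Phf2 mice and 8.17 ± 0.11 in GFP mice (SD, n = 5 each), a log2 fold change of -0.40 (standard error 0.07, 95% interval -0.54 to -0.25) with an adjusted p of 0.00248 from limma and p = 0.00794 in the two-sided exact permutation test. Without GFP replicate 1 the log2 fold change was -0.35 (adjusted p = 0.0057). In the RefSeq annotation no gene overlaps Psmd5 or Psmd9.

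The sequences just upstream of these 3 genes are shown because the genes encode chaperones of 1 assembly step and did not move together. Each is the 250 bases before the annotated start in RefSeq, build GRCm38.p6, written 5′ to 3′ on the strand of the gene, with capitals for matches on either strand to the core of the antioxidant response element bound by Nfe2l1 and Nfe2l2 (TGACNNNGC), the CCAAT box bound by NF-Y (CCAAT) or the E-box (CACGTG).
Psmd5 promoter, chr2:34870963-34871212 (-): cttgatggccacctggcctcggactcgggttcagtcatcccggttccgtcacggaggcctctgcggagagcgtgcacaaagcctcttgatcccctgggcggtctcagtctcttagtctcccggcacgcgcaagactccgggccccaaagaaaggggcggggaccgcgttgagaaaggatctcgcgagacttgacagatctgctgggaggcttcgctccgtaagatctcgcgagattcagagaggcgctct
Psmd10 promoter, chrX:140956712-140956961 (-): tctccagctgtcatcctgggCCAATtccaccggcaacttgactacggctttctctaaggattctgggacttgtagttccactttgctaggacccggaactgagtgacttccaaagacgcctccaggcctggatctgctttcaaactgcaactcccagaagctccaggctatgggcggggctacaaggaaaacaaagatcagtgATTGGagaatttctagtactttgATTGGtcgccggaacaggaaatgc
Psmd9 promoter, chr5:123227940-123228189 (+): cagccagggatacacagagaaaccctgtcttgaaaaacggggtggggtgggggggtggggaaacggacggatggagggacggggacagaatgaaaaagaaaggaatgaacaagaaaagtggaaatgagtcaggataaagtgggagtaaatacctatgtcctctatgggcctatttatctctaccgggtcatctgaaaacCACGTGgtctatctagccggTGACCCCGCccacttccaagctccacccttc
The Psmd5 window held none of these letters. The Psmd10 window held 3 CCAAT boxes, and the Psmd9 window held 1 E-box and 1 element core, 31 bases before the start. A match to these letters is not evidence of binding.

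The chaperones of the 20S core, which pair as Psmg1 with Psmg2 and Psmg3 with Psmg4 and guide the alpha ring, did not pass the test. Psmg2 (feature 10456414) read 6.57, 6.65, 6.70, 6.86 and 6.80 in Phf2 mice and 7.06, 6.97, 6.73, 6.94 and 7.34 in GFP mice. Only GFP replicate 3 lay within the Phf2 range. This gave a log2 fold change of -0.29 (standard error 0.10, 95% interval -0.51 to -0.07) with an adjusted p of 0.0999 from limma. Without GFP replicate 3 it was -0.36 with an adjusted p of 0.0329, but leaving out the lowest GFP value widens the difference by itself. Its partner Psmg1 read 8.74, 8.80, 8.80, 8.70 and 8.90 in Phf2 mice and 8.95, 9.10, 8.82, 8.81 and 9.12 in GFP mice, with a log2 fold change of -0.17 (adjusted p = 0.214). The other pair had positive estimates that were smaller than their intervals, 0.12 for Psmg3 (adjusted p = 0.519) and 0.13 for Psmg4 (adjusted p = 0.628). The plot of the chaperones by array shows that Psmd5 and Psmd9 separate the groups and the other 5 do not.

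**Figure D2:**
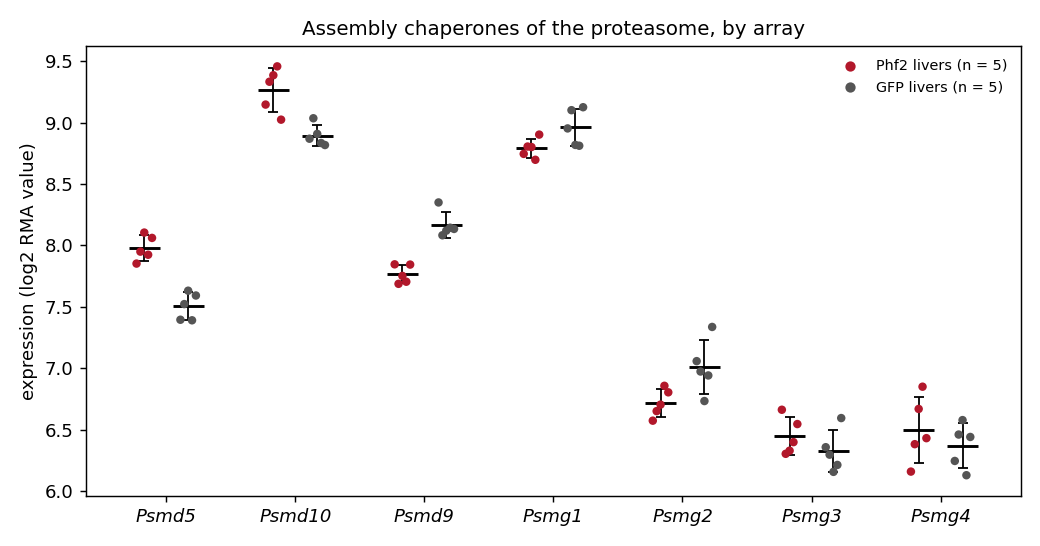
Log2 RMA value (vertical axis) of the 7 assembly chaperones on each array, with Phf2 livers in red to the left and GFP livers in grey to the right of each gene, bars for the mean and whiskers for the SD (n = 5 each). Phf2 livers lie above all GFP livers for Psmd5 and below all of them for Psmd9, Psmd10 overlaps by 1 Phf2 liver at 9.02, and levels are not comparable between genes.

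The 33 subunits of the 20S and 19S particles differed little between the groups. Their log2 fold changes ran between -0.11 (Psmb11) and 0.21 (Psmd8), 28 of 33 were above 0 and the median was 0.08. With limma 0 of 33 were called, at adjusted p-values between 0.0703 and 0.995. At an unadjusted limma p under 0.05, 6 were higher and 0 lower, against 2358 higher and 2065 lower of all 19938 genes. An ordinary t statistic without the shared spread, after the same adjustment, called 3 higher and 0 lower. Of all genes it called 694 higher and 616 lower. All 33 intervals excluded a 1.5-fold difference, the highest bound being 0.41 (Psmd8, 1.33-fold) and the lowest -0.42 (Psmb11). These are RNA levels. The paper also measured proteasome activity and states that it was not increased in Phf2 mice.

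In the alpha ring, which gates the core, 6 of 8 subunits had an estimate above 0 and the median log2 fold change was 0.06. Psma6 (feature 10395816), with the smallest p of the ring, read 11.50, 11.50, 11.44, 11.53 and 11.56 in Phf2 mice and 11.32, 11.35, 11.37, 11.33 and 11.37 in GFP mice. The groups did not overlap, although the difference was small, 0.16 on the log2 scale (standard error 0.05, 95% interval 0.05 to 0.27), with an adjusted p of 0.0803 from limma and p = 0.00794 in the two-sided exact permutation test. Estimates for the other constitutive subunits were 0.15 for Psma1, 0.07 for Psma2, 0.02 for Psma3, -0.00088 for Psma4, 0.05 for Psma5 and 0.07 for Psma7. Psma8, the alternative subunit of the testis, was dim in every liver and had an estimate of -0.06.

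The beta ring carries the proteolytic sites, chymotrypsin-like in Psmb5, caspase-like in Psmb6 and trypsin-like in Psmb7. The log2 fold changes of these catalytic subunits were 0.11, 0.04 and 0.03, with adjusted p-values of 0.446, 0.789 and 0.821. Psmb2 (feature 10508182), a structural subunit with the smallest p of the ring, read 9.73, 9.71, 9.72, 9.76 and 9.74 in Phf2 mice and 9.62, 9.62, 9.63, 9.50 and 9.66 in GFP mice. Its Phf2 values lay close together and above all GFP values, and GFP replicate 4 lay apart below. Psmb2 thus had an estimate of 0.13 (95% interval 0.01 to 0.24, adjusted p = 0.179). The structural subunits Psmb1, Psmb3 and Psmb4 had estimates of 0.02, 0.12 and 0.08, and Psmb11, the catalytic subunit of the thymus, was dim in every liver at -0.11. The alternative features of Psma3, Psma5 and Psmb3 gave estimates between 0.02 and 0.09.

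The 6 ATPases of the 19S base, which unfold the substrate, had estimates above 0 in 6 of 6 genes and a median of 0.08. Psmc6 (feature 10414288) had the smallest p and read 9.75, 9.73, 9.75, 9.74 and 9.72 in Phf2 mice and 9.59, 9.55, 9.79, 9.59 and 9.73 in GFP mice. GFP replicates 3 and 5 reached the Phf2 level. The log2 fold change was 0.09 (95% interval -0.05 to 0.22, adjusted p = 0.474, two-sided exact permutation p = 0.143). The ATPases held during assembly by the 3 called chaperones, Psmc2 by Psmd5, Psmc4 by Psmd10 and Psmc3 by Psmd9, had estimates of 0.08 each, with adjusted p-values of 0.575, 0.537 and 0.573. Psmc1 and Psmc5 were at 0.03 each. A second feature of Psmc1 gave -0.03.

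Of the non-ATPase subunits of the base, Psmd4, a receptor for ubiquitin chains (feature 10500054), read 9.41, 9.43, 9.59, 9.51 and 9.44 in Phf2 mice and 9.24, 9.08, 9.31, 9.36 and 9.43 in GFP mice. GFP replicate 5 overlapped the Phf2 livers, and the log2 fold change was 0.19 (95% interval 0.04 to 0.35, adjusted p = 0.131, two-sided exact permutation p = 0.0238). The scaffolds Psmd1 and Psmd2 had estimates of 0.13 and 0.10, and a second feature of Psmd2 gave -0.01. Psmd2 lies on chromosome 16, and the number of the second feature, unlike that of the first, falls among those of chromosome 16 genes.

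The lid removes the ubiquitin chain through Psmd14, a metalloprotease, whose estimate was 0.13 (adjusted p = 0.303). Psmd13 (feature 10558723), a structural subunit with the smallest p of all 33, read 8.27, 8.26, 8.36, 8.24 and 8.22 in Phf2 mice and 8.19, 8.01, 8.04, 7.95 and 8.16 in GFP mice. The groups did not overlap, and the log2 fold change was 0.20 (95% interval 0.06 to 0.34, adjusted p = 0.0703). Psmd12 read 10.12, 10.05, 10.07, 10.09 and 10.13 in Phf2 mice and 9.87, 9.98, 9.998, 9.92 and 10.01 in GFP mice, again without overlap, with a log2 fold change of 0.13 (adjusted p = 0.164). Together with Psma6 and Psmb2, these made 4 of 33 subunits with all Phf2 livers above all GFP livers, against 4.71% of all genes.

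Psmd8, the subunit with the highest estimate of the lid, showed a split within the Phf2 group. It read 9.13, 9.31, 9.56, 9.46 and 9.13 in Phf2 mice and 9.05, 9.16, 9.004, 9.11 and 9.19 in GFP mice. Phf2 replicates 2, 3 and 4 were high and Phf2 replicates 1 and 5 lay within the GFP range. Psmd10 and the proliferation, hepatocyte, T and NK cell, macrophage and pancreatic markers divided these livers the same way. This relation was not tested. Psmd8 did not pass the test (0.21, 95% interval 0.02 to 0.41, adjusted p = 0.172). The remaining lid subunits were at 0.07 for Psmd7, 0.04 for Psmd11, -0.00494 for Psmd6 and -0.07 for Psmd3.

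The subunits differed between arrays more within the GFP group than within the Phf2 group. The mean over the 47 members was 9.15, 9.13, 9.15, 9.17 and 9.14 in Phf2 mice and 9.07, 9.11, 9.08, 9.02 and 9.15 in GFP mice. GFP replicate 4 was the lowest of the 10 arrays for 16 of 33 subunits, and GFP replicate 5 reached the Phf2 level. The SD was smaller in Phf2 mice for 27 of 33 subunits (81.8%), with a median SD of 0.0484 in Phf2 mice and 0.0997 in GFP mice. The SD was smaller in Phf2 mice for 60.3% of all genes. No test was made of this difference in spread.

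**Figure D3:**
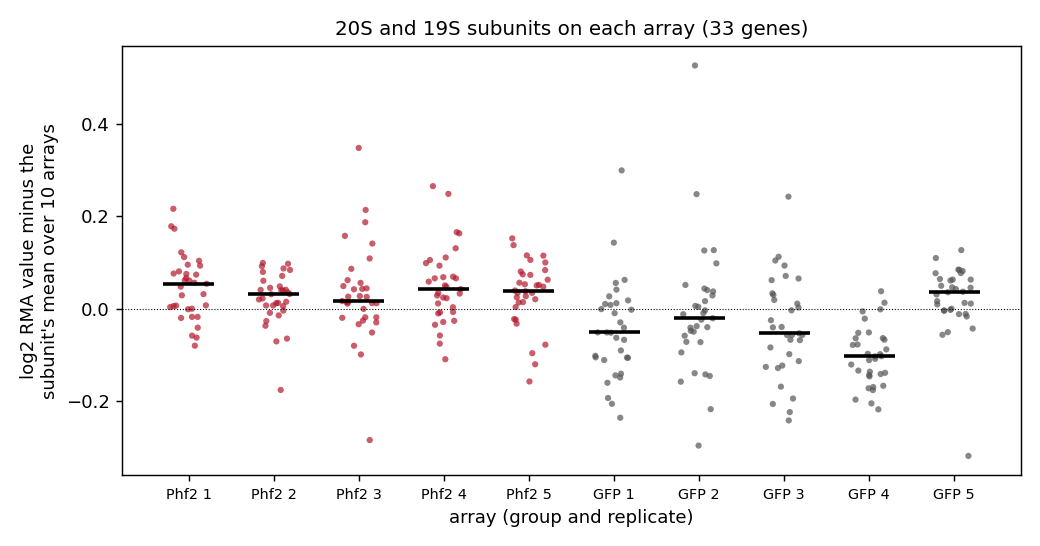
Deviation of the log2 RMA value from the gene's mean over all 10 arrays (vertical axis) for the 33 subunits of the 20S and 19S particles on each array, with Phf2 livers in red, GFP livers in grey and a bar for the median. Medians lie between 0.02 and 0.05 on the Phf2 arrays and between -0.10 and 0.04 on the GFP arrays, with GFP 4 lowest and GFP 5 level with the Phf2 arrays.

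No activator that opens the core without ubiquitin passed the test. Psme1 (feature 10415282), a subunit of the interferon-inducible activator PA28, read 10.57, 10.63, 10.73, 10.62 and 10.53 in Phf2 mice and 10.32, 10.63, 10.65, 10.47 and 10.55 in GFP mice. The groups overlapped widely, at a log2 fold change of 0.09 (95% interval -0.07 to 0.25, adjusted p = 0.541). Its partner Psme2 was at 0.03, the nuclear activators Psme3 and Psme4 were at 0.04 and -0.06, and Psmf1, which inhibits the core in vitro, was at 0.05. Of the genes caught by their symbol, Psmc3ip, a factor of meiotic recombination, read 5.23, 5.57, 5.42, 5.45 and 5.03 in Phf2 mice and 5.21, 4.88, 4.97, 5.32 and 5.24 in GFP mice (0.21, adjusted p = 0.300), and Psme3ip1, which binds Psme3, was at -0.05. None of these 7 genes passed the test with limma, and none had an unadjusted p under 0.05.

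Interferon gamma replaces the catalytic beta subunits by Psmb8, Psmb9 and Psmb10, and 0 of 3 passed the test. Psmb9 read 9.80, 9.66, 9.68, 9.66 and 9.79 in Phf2 mice and 8.96, 9.62, 10.34, 9.17 and 9.28 in GFP mice. GFP replicate 3 was the highest of the 10 livers, and the other 4 GFP livers lay below all Phf2 livers. The log2 fold change was 0.25 (95% interval -0.20 to 0.69, adjusted p = 0.555) with all arrays and 0.46 (adjusted p = 0.0235) without GFP replicate 3. Leaving out the highest GFP value raises the estimate by itself, so the second value is no separate evidence of a difference.

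Psmb8 read 8.27, 8.26, 8.19, 8.15 and 8.02 in Phf2 mice and 7.62, 7.98, 8.38, 7.70 and 8.22 in GFP mice (0.20, adjusted p = 0.435). Psmb10 read 7.43, 7.65, 7.71, 7.74 and 7.62 in Phf2 mice and 7.80, 7.65, 8.08, 7.48 and 7.61 in GFP mice (-0.09, adjusted p = 0.673). GFP replicate 3 was again the highest liver for both, whereas GFP replicate 1, the lowest for Psmb8 and Psmb9, was above 3 other GFP livers for Psmb10. Of 7 further genes of the interferon gamma response 0 passed the test. The same liver read highest for 4 of the 7, the transcription factor Irf1 (7.47), Tap1 (6.52), which carries peptides to MHC class I, Tapbp (7.22), and the chemokine Cxcl9 (9.36), but not for Tap2, Nlrc5 and B2m. It also had the highest macrophage marker mean of the GFP group (8.19, against 7.40 to 7.81 in the other GFP livers), whose part in this was not tested. Without GFP replicate 3 Tap1 had a log2 fold change of 0.43 (adjusted p = 0.0196) and Cxcl9 of 1.47 (adjusted p = 0.00219), against 0.24 (adjusted p = 0.496) and 1.06 (adjusted p = 0.124) with all arrays. The liver left out held the highest value of both genes, so these calls are not independent of that choice.

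Among 9 transcription factors of proteasome genes and their partners, 2 were higher in Phf2 mice and 0 lower (22.2% called, against 9.67% of all genes). In a list this short the share is imprecise. Nfe2l2, the activator of antioxidant genes, read 10.33, 10.27, 10.45, 10.28 and 10.22 in Phf2 mice and 9.09, 9.16, 9.49, 9.26 and 9.63 in GFP mice. All Phf2 livers lay above all GFP livers, at a log2 fold change of 0.98 (95% interval 0.77 to 1.20), or 1.98-fold (adjusted p = 7.55e-05). Its small Maf partner Maff read 6.38, 6.59, 7.28, 6.76 and 6.44 in Phf2 mice and 5.47, 5.68, 5.54, 5.16 and 5.39 in GFP mice, a log2 fold change of 1.24 (adjusted p = 0.000365).

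Nfe2l1, the main activator of proteasome subunit genes, read 8.42, 8.48, 8.84, 8.66 and 8.63 in Phf2 mice and 8.43, 8.26, 8.43, 8.37 and 8.42 in GFP mice. All Phf2 livers but replicate 1 lay above the GFP livers. The log2 fold change was 0.22 (95% interval 0.04 to 0.40) and did not pass the test (adjusted p = 0.121). Mafg and Mafk, which also pair with these factors, had estimates of -0.07 and 0.06, and Nfya, the DNA-binding subunit of NF-Y, of 0.19 (adjusted p = 0.181).

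Sequences that such factors can bind were then counted in the promoters of the members. Of the 47 members 39 had a RefSeq promoter window, and 5 of them (12.8%) held the core of the antioxidant response element, against 11.5% of all 27025 genes with windows of the same length, each gene counted once however many windows it had. The CCAAT box was in 15 members (38.5%), against 37.5% of genes, and the E-box in 4 (10.3%), against 6.86%. The 5 element cores are shown in capitals with the bases beside them, since Nfe2l2 itself was higher in Phf2 mice.
Psmb5: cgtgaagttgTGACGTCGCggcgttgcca
Psmb6: ctaaagagagTGACGGAGC
Psmc6: ccagccagtaGCTAAGTCAggcattgctc
Psmd12: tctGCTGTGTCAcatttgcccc
Psmd9: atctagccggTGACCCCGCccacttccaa
They lie 47, 9, 227, 247 and 31 bases before the start, in the order given. The log2 fold changes of these 5 genes were 0.11 for Psmb5, 0.04 for Psmb6, 0.09 for Psmc6, 0.13 for Psmd12 and -0.40 for Psmd9. The only called gene among them, Psmd9, was lower in Phf2 mice. Binding at these elements was not measured, and their relation to Nfe2l2 was not tested.

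Of 5 further proteasome genes which the symbol rule does not hold, 0 passed the test, with estimates of -0.02 for Pomp, the maturation factor of the 20S core, 0.04 for the small lid subunit Sem1, 0.08 and 0.06 for the deubiquitinases Uchl5 and Usp14, and -0.03 for Ecpas, a scaffold that binds the proteasome. Of 12 shuttles and proteasome-bound factors 2 were higher and 0 lower (16.7% called, against 9.67% of all genes). Zfand2a, a stress-induced zinc finger protein of the 19S particle, read 7.95, 8.32, 8.31, 8.49 and 7.99 in Phf2 mice and 7.78, 7.45, 7.39, 7.47 and 7.71 in GFP mice. Its 3 highest livers were again Phf2 replicates 2, 3 and 4. The hepatocyte, T and NK cell, macrophage, pancreatic and proliferation markers also set these livers apart within their group, and this relation was not tested. For Zfand2a the groups did not overlap, at a log2 fold change of 0.65 (adjusted p = 0.00346).

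Zfand5, which stimulates the proteasome in muscle, read 8.74, 8.70, 8.90, 8.90 and 8.73 in Phf2 mice and 8.38, 8.66, 8.49, 8.30 and 8.51 in GFP mice. The groups did not overlap, although the lowest Phf2 liver lay close to GFP replicate 2, at a log2 fold change of 0.33 (adjusted p = 0.0185), and the call was lost without Phf2 replicate 3 (adjusted p = 0.0501) or Phf2 replicate 4 (adjusted p = 0.0548). The shuttle Rad23b had an estimate of -0.13 (adjusted p = 0.204), Akirin2, which carries proteasomes into the nucleus, of 0.15 (adjusted p = 0.206) and the unfoldase Vcp of 0.02. The plot of related genes shows these levels by liver.

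**Figure D4:**
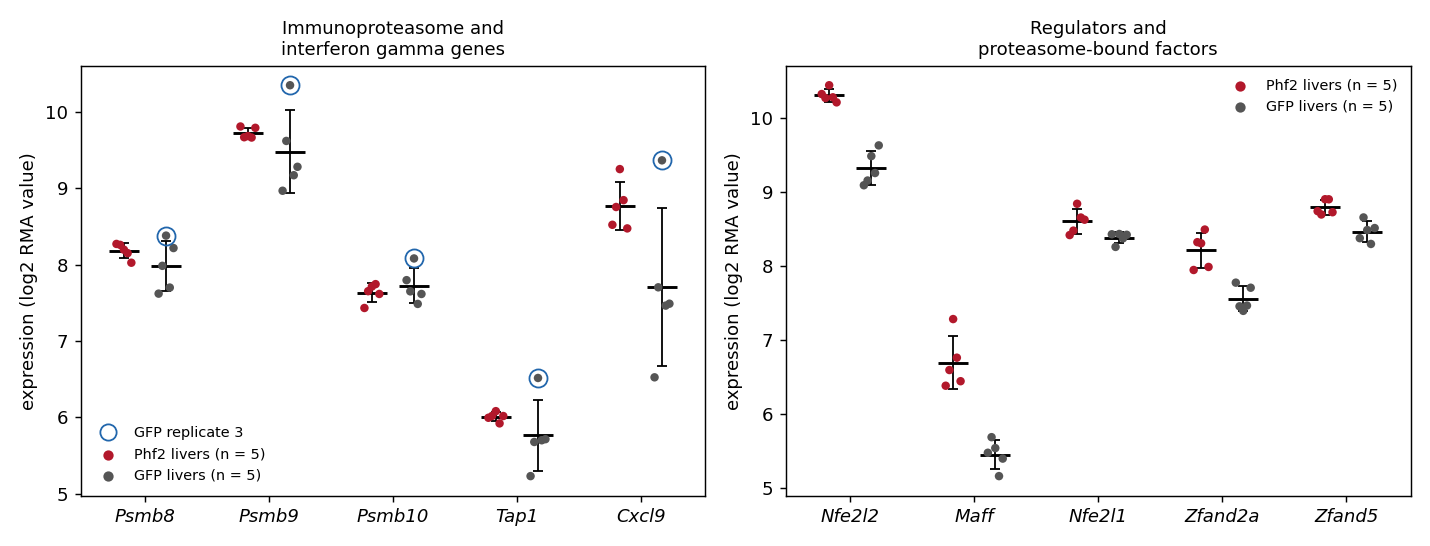
Log2 RMA value (vertical axes) on each array of immunoproteasome and interferon gamma genes (left panel) and of regulators and proteasome-bound factors (right panel), with Phf2 livers in red to the left and GFP livers in grey to the right of each gene, bars for the mean and whiskers for the SD (n = 5 each). The ringed GFP replicate 3 is the highest GFP liver for all 5 genes on the left, and Phf2 livers lie above all GFP livers for Nfe2l2, Maff, Zfand2a and Zfand5 on the right.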

How the data were processed

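Liver RNA of 5 Phf2 and 5 GFP mice was measured on 1 array each, grouped by the sample labels. The authors normalized the arrays with RMA and deposited log2 values for 35556 features (processing notes of the submitters: RMA and Partek, versions not given in the sources used here). RMA equalizes the arrays, so a shift shared by most genes would not be seen. The methods name a human array and an RNeasy kit, whereas another kit stands in the labels and the features carry numbers of a mouse Gene ST array. No genome build is named, and coordinates come from the RefSeq table of GRCm38.p6 alone.

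Features with 1 symbol (21789) were used, and those with several (1621, among them 1 that names Psme2 and Psme2b) or none (12146) were left out. A gene with several features (999 genes) was read through the one with the highest mean, which left 19938 genes. For Psma3, Psma5, Psmb3 and Psmd2 the number of that feature falls outside those of genes on their own chromosome. If these features read another locus was not tested. All 47 members matched RefSeq by gene number. The comparison used lmFit and eBayes of limma 3.58.1 (R 4.3.3), without covariate or filter, and p-values were adjusted by Benjamini-Hochberg over the 19938 genes. Single values were also compared by two-sided exact permutation tests. The pipeline was tested on simulated data, where it recovered 11 of 50 genes changed by 1.25-fold and 48 of 50 changed by 1.5-fold. Changes of 1.25-fold were thus mostly missed in the simulation. It called 171 genes, against 1929 in the data. The median standard error was 0.07 for the 20S and 19S subunits and 0.08 for all genes. The simulated recovery therefore does not give the power for these subunits, whose highest estimate was 1.16-fold. Correlations between arrays were 0.978 to 0.993, and none were duplicates. Array medians lay between 5.06 and 5.18.

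Every member is named with its log2 fold change. Values of all arrays are given for members past the threshold and for the one with the smallest p in a role group where none passed. Psmd8, Psmd12, Psmg1 and Psmg2 were shown in full after their values were seen. The members and lists were chosen with earlier results of these data known. Alternatives were an ordinary t statistic, eBayes with an intensity trend and a robust prior, weighted arrays, dropping dim features, quantile normalization on top of RMA, centring on array medians, testing all features, averaging the features of a gene, a block for the replicate number, and leaving out each array. A pancreatic marker covariate and leaving out GFP replicates 1 and 3 together were added after the data were seen. Listed genes without a single-symbol feature, such as Adrm1, Paaf1 and Ddi2, are not analysed here.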

Additional observations from a re-analysis of the deposited data

Results flagged for a closer look

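In 172 groups of 5 values, 4 held a liver that stood apart by Dixon's criterion, and chance alone would mark about 5% of groups. The groups were of members, of means over sets of members, and of all measured genes in the lists of related genes, some not named here. Psmd9 in GFP replicate 1 (8.35) lay above the other GFP livers, and without that liver Psmd9 was still lower in Phf2 mice (-0.35, adjusted p = 0.0057 from limma). Psmb2 in GFP replicate 4 (9.498) lay below the other GFP livers. Psmb11, dim throughout, in Phf2 replicate 1 (4.51) lay above the other Phf2 livers. Mafk in Phf2 replicate 2 (6.15) lay below the other Phf2 livers.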

How the results depend on the processing

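Psmd5 and Psmd9 kept their direction and their call under all 21 alternatives, with adjusted p-values of 0.000785 to 0.0087 and 0.00163 to 0.015, and so did Nfe2l2, Maff and Zfand2a. Psmd10 was called under 20 of 21 (adjusted p 0.00402 to 0.0725). Without GFP replicates 1 and 3 together, a setting chosen after the data were seen, Psmd10 was at 0.37 (adjusted p = 0.0725), which left 1 member and 1 chaperone higher, 719 genes higher and 536 lower of all genes, 1 shuttle or factor called (Zfand2a, while Zfand5 lost its call at an adjusted p of 0.0925) and 2 interferon gamma genes called, Cxcl9 and Tap1. GFP replicate 3 was among those left out for its high interferon gamma list, so these 2 calls are not independent of that choice.

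Calls among the 20S and 19S subunits varied with the test. The ordinary t statistic called 5 members higher, 3 of them 20S or 19S subunits (adjusted p 0.00982 for Psma6, 0.0426 for Psmd12 and 0.0438 for Psmb2), and 694 of all genes higher. An intensity trend with a robust prior called 1 subunit (Psma6, 0.0267), as did the filter on dim features (Psmd13, 0.0444) and quantile normalization (Psma6, 0.0318). Under quantile normalization 2 members, both of them chaperones, were lower, since Psmg2 (-0.33) had an adjusted p of 0.0495. Leaving out single arrays, members lower ranged from 1 to 2 and so did chaperones lower (2 without GFP replicate 3), immunoproteasome calls from 0 to 1 (Psmb9), interferon gamma calls from 0 to 2, and shuttles and factors from 1 to 2. Nfya was called without GFP replicate 5 (0.25, adjusted p = 0.0394).

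Median centring gave 829 genes higher and 959 lower, 46.4% of calls higher against 56.1% as deposited, with a median of -0.03 over all genes and 0.06 over the 33 subunits. Of these 33, 27 to 30 had an estimate above 0 over the alternatives. Same-numbered arrays did not deviate together (correlations of -0.168 to 0.002), so the numbers were not taken as pairs. The replicate block called 855 genes higher and 659 lower, 1 shuttle or factor (Zfand2a, while Zfand5 lost its call at 0.0655) and 1 interferon gamma gene (Cxcl9 at 0.0369), and changed no other call among the members and lists.

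Uncalled genes near 0 changed sign. Psma4 was at 0.00255 with array weights and 0.00687 after quantile normalization, which put Psmd6 at 0.00113 and Pomp at 0.00343, and Psmc1 was at -0.000474 with the mean of features. Without GFP replicates 1 and 3 the estimates were 0.00184 for Psma4, -0.0508 for Psmb1, -0.00366 for Psmc3, 0.00351 for Psmd6, 0.0478 for Psmb10 and -0.0105 for Vcp. Leaving out single arrays gave -0.0126 to 0.0515 for Psma3, -0.0142 to 0.0144 for Psma4, -0.137 to 0.000673 for Psma8, -0.038 to 0.0542 for Psmb1, -0.206 to 0.00524 for Psmb11, -0.0334 to 0.0193 for Psmd6, -0.00985 to 0.118 for Psmf1, -0.00809 to 0.0721 for Vcp, -0.00954 to 0.0913 for B2m, -0.0261 to 0.306 for Irf1 and -0.103 to 0.0351 for Tapbp. The cause of these changes was not tested.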
